A study of Oryza sativa with 6 samples.

Results

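The genes described here are 8 glutelin genes and the alpha-globulin gene Glb of rice, read from whole grains of the cultivar ZH11 and of the drw1 mutant. They were chosen by identifier as GluA2, GluA3, GluB1, GluB2, GluB4, GluB5, GluC1, GluD1 and Glb, and all 9 are among the 39217 gene models of the deposited table. Grains were taken 3 days after pollination from field-grown plants, with 3 libraries of total RNA per genotype, 6 in all. ZH11 is the wild type, a japonica cultivar, and drw1 is a mutant for which the labels give neither the allele nor the background. The mutant columns of the table carry another prefix than drw1 and were assigned to it because the series holds no other genotype, so each direction given for drw1 rests on that assignment. Whether each library is a plant of its own is not in the labels, and the p-values below therefore rest on a spread between libraries that may be technical.

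Glutelins are the main storage proteins of rice endosperm, the tissue of the grain that stores starch and protein for the seedling. They are made as precursors on the endoplasmic reticulum, carried to protein storage vacuoles and cut there into an acidic and a basic chain, and they fall by sequence into the subfamilies A, B, C and D. Alpha-globulin is a salt-soluble storage protein that is kept in the same vacuoles. Transcription of these genes in the starchy endosperm is switched on by factors of the bZIP, DOF and NAC families.

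All 9 genes were lower in drw1 than in ZH11, and in none did a drw1 library reach the level of any ZH11 library. Summed over the 9, levels were 267, 251 and 255 CPM in the ZH11 libraries and 8.36, 7.37 and 8.12 CPM in the drw1 libraries (CPM is counts per 1000000 of a library total scaled by TMM factors). The means were 258 ± 8.51 and 7.95 ± 0.517 CPM (SD, n = 3), a ratio of 32.4. Every member passed edgeR's default filter on low counts and was among the 23395 genes tested. GluA3, GluB1, GluB4, GluB5, GluC1 and GluD1, with 3 to 29 reads each over drw1, passed it only through their ZH11 libraries. A locus that passes in this way can hardly be called higher, which the shares of all genes below do not allow for. At an adjusted p of 0.05, 9 of 9 members were called lower, where 34.4% of all genes tested were lower and 70.1% differed in either direction. At 2-fold or more, 9 of 9 members were lower, against 14.6% of all genes. At 8-fold or more the count was again 9 of 9, against 1.82% of all genes, and at 32-fold or more it was 6 of 9, against 0.385%. The drw1 libraries lay entirely below the ZH11 libraries in 9 of 9 members and in 35.3% of all genes. The members' median log2 fold change was -5.45, and that of all genes tested was 0.03. Library totals as scaling put all genes at a median of 0.19 and the members at -5.29, and moved the part of all calls that were higher from 51.0% to 61.3%. In whole grains, fewer endosperm cells and less RNA per endosperm cell cannot be told apart.

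**Figure D1:**
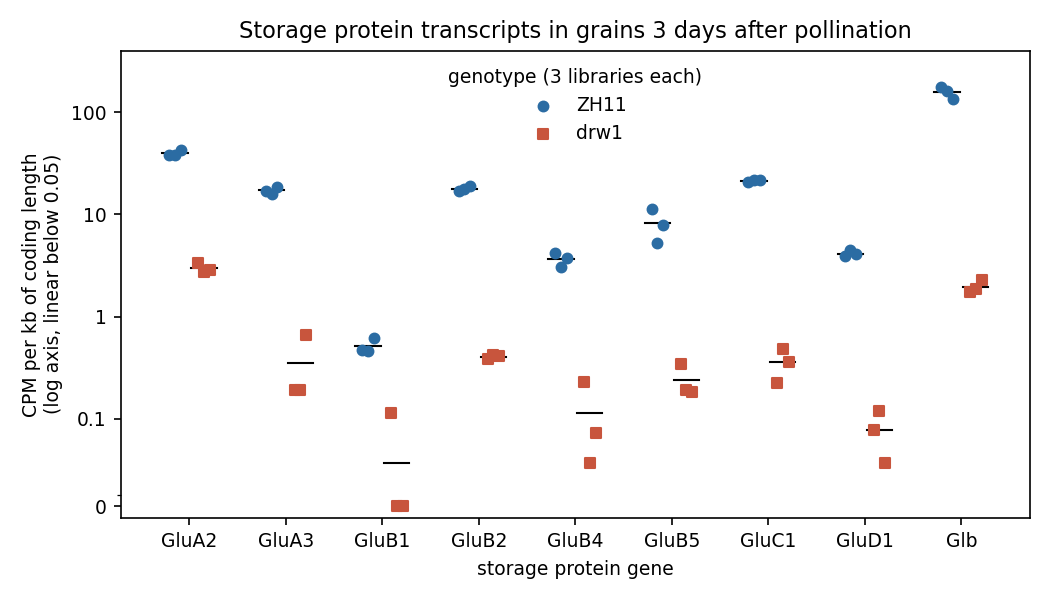
Level of each storage protein gene in each library, in CPM per kb of coding length on a log axis that is linear below 0.05; circles are the 3 ZH11 libraries, squares the 3 drw1 libraries and bars their means. Glb stood highest in ZH11 at 157 CPM per kb and GluA2 highest in drw1 at 2.99, and in no gene did the genotypes overlap.

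GluA2, the most abundant glutelin per length in both genotypes, encodes a precursor of the A subfamily. Its locus, LOC_Os10g26060 on chromosome 10, had 56.7, 57.8 and 64.8 CPM in ZH11 and 5.04, 4.14 and 4.25 CPM in drw1. The 3 drw1 libraries lay close together, and the lowest ZH11 library exceeded the highest drw1 library 11.2-fold. The log2 fold change was -3.73 (SE 0.11; adjusted p = 7.9e-15, edgeR's quasi-likelihood test). With 237 counts over drw1, GluA2 was the best counted member in the mutant.

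GluA3, the other A-type gene measured, lies on chromosome 3 (LOC_Os03g31360). Its levels were 25.4, 23.9 and 27.6 CPM in ZH11 and 0.286, 0.288 and 0.994 CPM in drw1. Among the mutant libraries, replicate 3 held 18 reads of this gene and each of the others 5, so its spread in drw1 came to 78.1% of the mean. The log2 fold change was -5.58 (SE 0.23; adjusted p = 5.5e-13, edgeR's quasi-likelihood test), and it was -6.44 without drw1 replicate 3.

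The 4 B-type genes lie on chromosome 2. GluB2 (LOC_Os02g15150) was the most abundant of them, with 25.4, 26.3 and 28.4 CPM in ZH11 and 0.573, 0.633 and 0.607 CPM in drw1. Its drw1 values rest on 10, 11 and 11 reads, and their coefficient of variation of 5.04% is below the 30.6% that counting error alone gives. Its log2 fold change was -5.45 (SE 0.16; adjusted p = 9.7e-15, edgeR's quasi-likelihood test). GluB5 (LOC_Os02g16820) had 17.1, 7.95 and 11.9 CPM in ZH11 and 0.515, 0.288 and 0.276 CPM in drw1. Its ZH11 libraries differed 2.15-fold from lowest to highest, a coefficient of variation of 37.4% where counting error alone gives 6.67%. Its log2 fold change was -5.06 (SE 0.35; adjusted p = 7.8e-10, edgeR's quasi-likelihood test).

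GluB4 (LOC_Os02g16830) is the tested locus next to GluB5. It had 6.28, 4.59 and 5.70 CPM in ZH11 and 0.344, 0.0576 and 0.110 CPM in drw1. Only 9 reads were counted over drw1, 6 of them in replicate 1. The log2 fold change was -4.96 (SE 0.37; adjusted p = 2.3e-09, edgeR's quasi-likelihood test), and it was -5.91 without drw1 replicate 1.

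GluB1 (LOC_Os02g15178) was the least abundant member in both genotypes, with 13, 16 and 14 reads in the ZH11 libraries. In drw1 it had 3 reads in replicate 1 and 0 in the other two, where a count of 0 allows up to 0.173 and 0.166 CPM. The ratio of ZH11 to drw1 was 13.5, with a 95% counting interval of 4.32 to 68.0. The fitted log2 fold change was -3.61 (SE 0.73; adjusted p = 0.00031, edgeR's quasi-likelihood test). Without drw1 replicate 1 no read of the gene was left in the mutant, and the fitted value of -6.83 then depends on the prior count. How reads that match several glutelin copies were counted is not given in the sources used here. Levels of single glutelin genes, above all those of the B type, and the ratios between them are therefore uncertain.

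To keep reads that close copies may have exchanged within one value, the members of a subfamily were also summed before the test. Reads that match several copies would be missing from the sums too, had they been discarded. Summed GluA holds GluA2 and GluA3 only, and reads exchanged with a copy outside the members are not kept within it. Summed GluB fell by 5.24 on the log2 scale (SE 0.16; adjusted p = 1.6e-14, edgeR's quasi-likelihood test), from 45.3 ± 5.16 to 1.19 ± 0.356 CPM (SD, n = 3). Summed GluA fell by 4.09 (SE 0.10; adjusted p = 1.3e-15, edgeR's quasi-likelihood test), from 85.4 ± 6.11 to 5.0 ± 0.494 CPM (SD, n = 3). Both falls are far larger than the spread of the sums between libraries.

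GluC1 (LOC_Os02g25640), the C-type gene, also lies on chromosome 2 but apart from the others, with 211 tested loci between it and GluB4. It had 31.7, 33.5 and 33.5 CPM in ZH11 and 0.344, 0.748 and 0.552 CPM in drw1. The ZH11 libraries differed little, with a coefficient of variation of 3.20%. Its log2 fold change of -5.89 (SE 0.17; adjusted p = 7.4e-15, edgeR's quasi-likelihood test) was the lowest of the 8 glutelins.

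GluD1 (LOC_Os02g15090), the D-type gene, was less abundant, with 5.69, 6.47 and 5.97 CPM in ZH11 and 0.115, 0.173 and 0.0552 CPM in drw1. Its drw1 values rest on 6 reads in all. The log2 fold change was -5.66 (SE 0.33; adjusted p = 9.4e-11, edgeR's quasi-likelihood test), and the counting interval of the ZH11 to drw1 ratio ran from 24.4 to 147.

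Glb (LOC_Os05g41970), the alpha-globulin gene on chromosome 5, had 98.3, 89.7 and 76.0 CPM in ZH11 and 0.973, 1.04 and 1.27 CPM in drw1. Its lowest ZH11 library was 59.8 times its highest drw1 library. The log2 fold change of -6.32 (SE 0.15; adjusted p = 5.9e-16, edgeR's quasi-likelihood test) was the lowest of the 9 members and stood at position 28 from the lowest among all genes tested. GluA2 and GluB1 stood at the other end of the list, at positions 223 and 246 from the lowest.

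**Figure D2:**
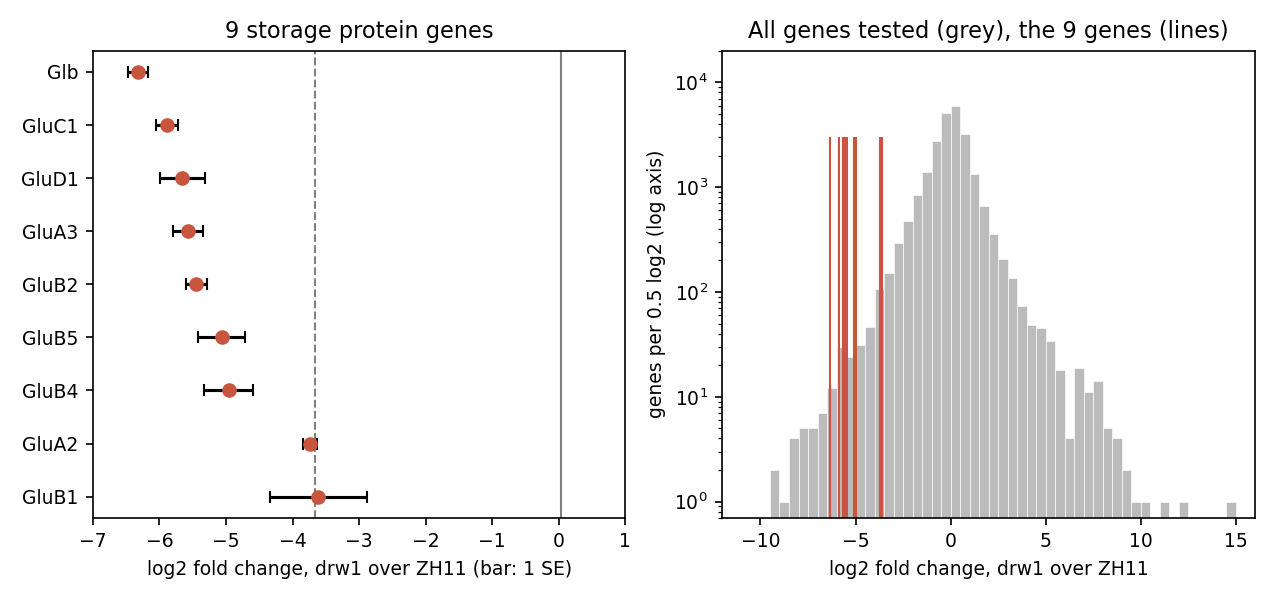
Left, log2 fold change of each member with 1 SE; the solid line is the median of all genes tested (0.03) and the dashed line their 1st percentile (-3.66). Right, the number of genes tested per step of log2 fold change on a log axis, with the 9 members as lines; 8 of the 9 lie below the 1st percentile and GluB1 at -3.61 just above it.

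Per coding length, which ran from 1455 to 1533 bases in the glutelins and is 561 bases in Glb, the members differed widely in level. In ZH11 the order was Glb (157 ± 20.02 CPM per kb; SD, n = 3), GluA2 (39.8 ± 2.94), GluC1 (21.5 ± 0.686), GluB2 (17.9 ± 1.03), GluA3 (17.2 ± 1.25), GluB5 (8.19 ± 3.06), GluD1 (4.15 ± 0.272), GluB4 (3.68 ± 0.573) and GluB1 (0.520 ± 0.0911). Neighbours in this order were apart in every library except GluB2 with GluA3 and GluD1 with GluB4, whose libraries overlapped. In drw1 the first place passed to GluA2, at 2.99 ± 0.325 CPM per kb (SD, n = 3), ahead of Glb at 1.95 ± 0.279 and GluB2 at 0.406 ± 0.0205. From GluB2 down, every neighbouring pair overlapped in drw1. Among all genes tested, ordered by level per length, Glb stood at place 644 in ZH11 and 19329 in drw1, and GluA2 at 3780 and 17756.

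The fall was not the same in all members, and the make-up of the storage protein transcript pool shifted towards GluA2. GluA2 held 13.1%, 14.4% and 17.0% of the summed level per length in ZH11 and 50.4%, 45.6% and 41.5% in drw1. Glb held 60.9%, 59.8% and 53.2% in ZH11 and 26.1%, 30.5% and 33.2% in drw1. Neither share overlapped between genotypes. The 4 GluB genes together held 11.2 ± 1.23% in ZH11 and 12.2 ± 3.39% in drw1 (SD, n = 3), a difference within the spread of libraries. GluC1 held 7.99 ± 0.721% and 5.56 ± 2.35%, and GluD1 1.54 ± 0.163% and 1.23 ± 0.702%, and both overlapped.

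**Figure D3:**
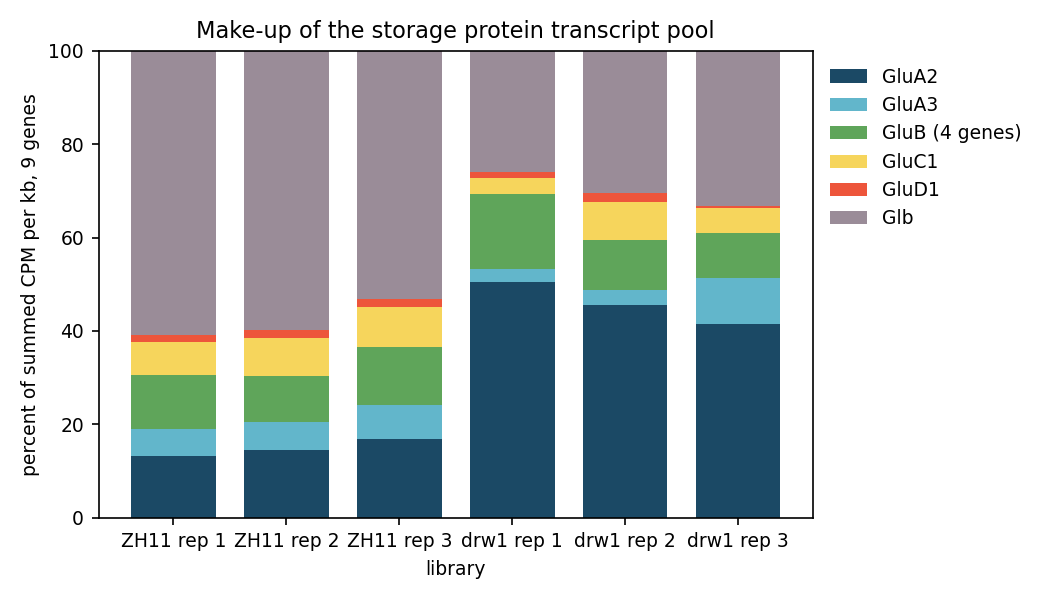
Make-up of the summed level per length of the 9 genes in each library, in percent; each bar is 1 library and its colours are the genes, with the 4 GluB genes joined. GluA2, at the bottom, takes 13.1% to 17.0% in ZH11 and 41.5% to 50.4% in drw1, and Glb, at the top, shrinks.

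The subfamilies were then compared by ratios within a library, which do not depend on scaling between libraries. The log2 ratio of summed GluB to summed GluA was -0.92 ± 0.17 in ZH11 and -2.10 ± 0.34 in drw1 (SD, n = 3), a difference of -1.18. That of GluC1 to summed GluA differed by -1.88, that of GluD1 to summed GluA by -1.77, and that of Glb to all 8 glutelins by -1.70. The genotypes were apart in each of the 4 ratios, and each gave p = 0.1 in a two-sided exact permutation test, also after adjustment over the 4, which is the smallest p that 3 against 3 libraries allow. With GluA3 alone in its place, a choice made after the values were seen, the difference was 0.60 for GluB, -0.10 for GluC1 and 0.0080 for GluD1, and the genotypes overlapped in all 3. These values turn on drw1 replicate 3, which holds 18 of the 28 GluA3 reads of the mutant, and without it they were 1.31, 0.46 and 1.05.

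Relative to GluA2 in the same library, 7 of the 8 other members were lower in every drw1 library than in every ZH11 library, GluB1 being the exception. GluA2, at -3.73 on the log2 scale, fell less than each of these 7, so the count largely restates the order of the fold changes. The share of all genes that lie lower by this measure was not computed. GluA3 stood at 45.0%, 41.6% and 42.9% of GluA2 per length in ZH11 and at 5.72%, 6.99% and 23.5% in drw1. GluB2 stood at 45.0 ± 0.870% in ZH11 and 13.8 ± 2.05% in drw1, and GluC1 at 54.0 ± 3.15% and 12.3 ± 5.51% (SD, n = 3). Glb went from 397 ± 76.6% of GluA2 to 66.1 ± 14.1% (SD, n = 3). These ratios were chosen after the values were seen and were given no test.

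Of the 9 members, 6 lie on chromosome 2. GluD1 and GluB2 have 2 tested loci between them, GluB2 and GluB1 have 1, and GluB5 and GluB4 have 0. Among the 63 other loci within 5 tested loci of a member, 22 were lower (34.9%, against 34.4% of all genes), 24 were higher (38.1%, against 35.7%) and 17 did not pass. Their median log2 fold change was 0.12. Within 10 tested loci the balance turned, with 51 of 123 lower (41.5%), 38 higher (30.9%) and a median of -0.07. Around the 6 members of chromosome 2 alone, a set chosen after the values were seen, 8 of 33 loci within 5 steps were lower and 15 were higher. At 2-fold or more, 3 of the 33 were lower (14.6% of all genes), down to -3.12, and 8 were higher (12.7% of all genes), up to 5.82. The median of the 33 was 0.24. Each of the 9 members had a lower value than all of its own neighbours outside the 9. However, GluB1 at -3.61 (SE 0.73) was close to its lowest such neighbour at -3.12 (SE 0.47). Without drw1 replicate 3, GluB1 lay above that neighbour, at -3.06 beside -3.32. One of the loci between GluD1 and GluB2, LOC_Os02g15110, had 2, 0 and 0 reads in ZH11 and 42, 42 and 43 in drw1. Its ratio of drw1 to ZH11 was 67.5, with a 95% counting interval of 18.3 to 563. It was chosen for its place and values after these were seen, and the files give it no name.

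**Figure D4:**
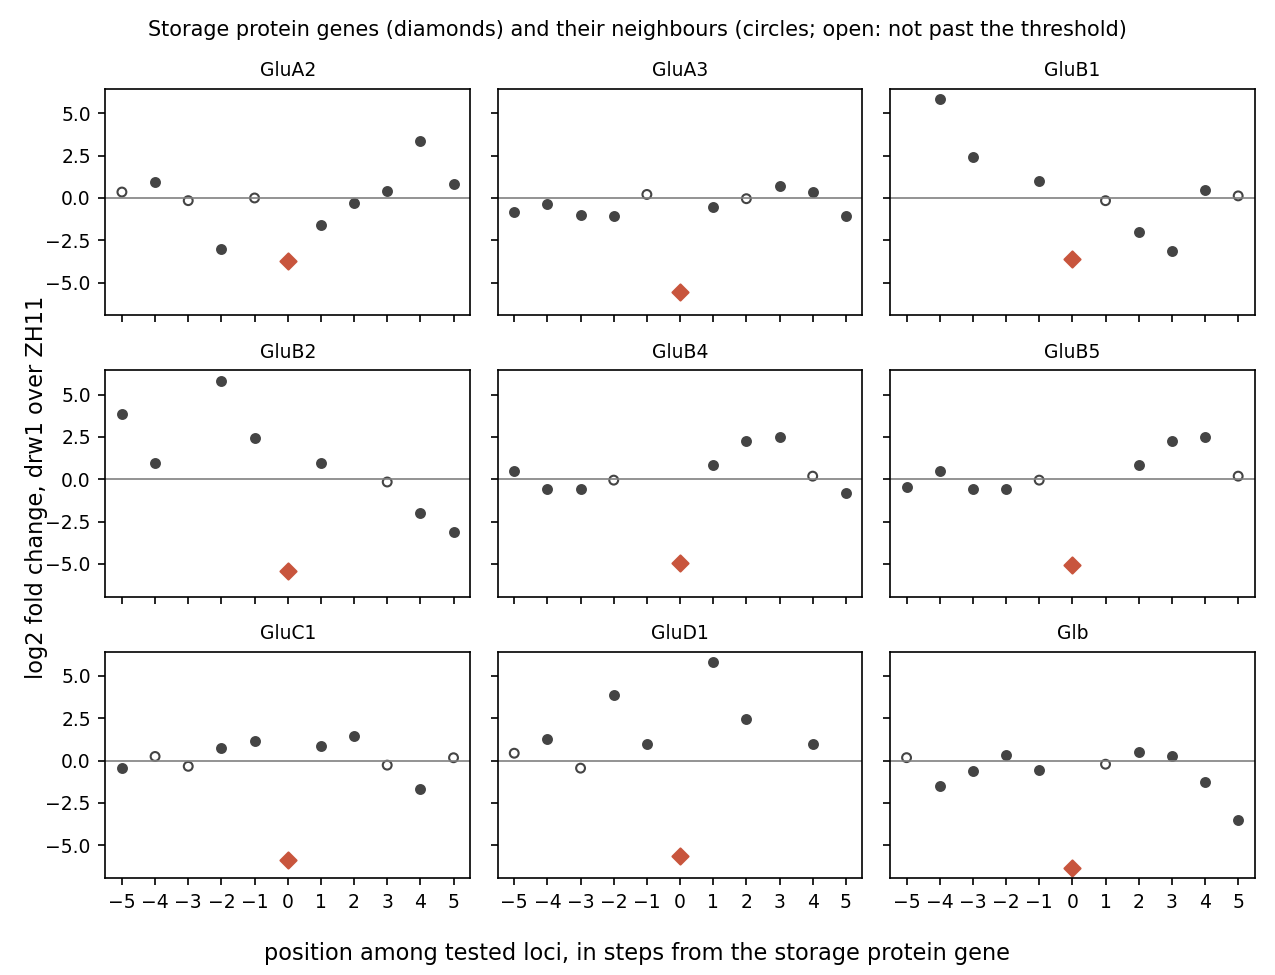
Log2 fold change of each member (diamond) and of the tested loci up to 5 steps away in identifier order (circles, open where the adjusted p did not pass 0.05); other members within the window are left out. The members lie at -3.61 to -6.32 and their neighbours on both sides of 0, down to -3.53 and up to 5.82.

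Further loci of the glutelin family were listed from memory, as 5 loci with no name in the files, of which the table holds 4. Of the 2 tested, 1 fell and 1 rose. The locus that fell, on chromosome 2, had 652 reads in the ZH11 libraries together and 8 in those of drw1, or -6.19 on the log2 scale (SE 0.28; adjusted p = 2.0e-12, edgeR's quasi-likelihood test). The locus that rose, LOC_Os08g03410, had 11.5, 11.1 and 9.32 CPM in ZH11 and 47.5, 48.5 and 53.5 CPM in drw1, which is 2.22 on the log2 scale (SE 0.10; adjusted p = 1.8e-12, edgeR's quasi-likelihood test). It was apart between genotypes in the direction opposite to all 9 members. The 2 loci that were too low to test, both on chromosome 2, had 25 and 32 reads over ZH11 and 1 each over drw1, with counting intervals of the ratio from 3.85 to 966 and from 5.03 to 1226. With the 3 low or fallen loci of chromosome 2 added, a choice made after the values were seen, summed GluB fell by 5.38 on the log2 scale.

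Loci assigned to activators of storage protein genes fell in 7 of 7 cases, each at least 2-fold, where 34.4% of all genes tested were lower and 14.6% at least 2-fold lower. Their log2 fold changes ran from -6.66 to -1.61, with a median of -3.27. The lowest of these 7 lay below all 9 members, whose lowest was -6.32, and rests on 5 reads over drw1 beside 578 over ZH11. The summed level of the 7 activator loci was 86.4 to 94.4 CPM in ZH11 and 12.2 to 13.6 CPM in drw1, a ratio of 7.06. Of 12 loci assigned to folding, sorting and cleavage of glutelin precursors, 5 were lower, 4 were higher and 3 did not pass (3 lower with library totals as scaling), counts near the shares of all genes, 34.4% lower and 35.7% higher. Of these 12, 0 fell and 1 rose by 2-fold or more, the rise being 1.22 on the log2 scale. Their median was -0.13, and their summed level was 1682 to 1718 CPM in ZH11 and 1660 to 1711 CPM in drw1. As background, these comprise the vacuolar enzyme that cuts the precursors, chaperones of the endoplasmic reticulum and proteins of vesicle transport. The summed storage protein transcripts came to 15.1 ± 0.381% of the sum of these 12 loci in ZH11 and 0.474 ± 0.0296% in drw1 (SD, n = 3).

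Markers of grain tissues were read beside the storage protein genes. Of 8 loci assigned to endosperm other than storage proteins, mostly starch enzymes, 8 were lower, each at least 2-fold (34.4% and 14.6% of all genes). Their log2 fold changes ran from -6.26 to -1.27 with a median of -3.01. The loci at -6.26 and -6.17 lay below all 8 glutelins, whose lowest was -5.89. The summed level of these endosperm loci was 1973 to 1984 CPM in ZH11 and 289 to 305 CPM in drw1, a ratio of 6.66 beside 32.4 for the storage protein genes. Abundant loci weigh most in this sum, the most abundant having 541 CPM in ZH11 and a log2 fold change of -2.92. The storage protein sum was 13.03 ± 0.393% of this endosperm sum in ZH11 and 2.68 ± 0.229% in drw1 (SD, n = 3), with no overlap. Of 8 loci of the green pericarp, 7 were lower and 1 was higher (0 higher with DESeq2 size factors), where 34.4% and 35.7% of all genes were. At 2-fold or more, 4 of these 8 were lower, against 14.6% of all genes, and 0 were higher, against 12.7%. Their median log2 fold change was -0.82. Their sum was 1434 to 1662 CPM in ZH11 and 867 to 919 CPM in drw1. The single seed coat locus was lower by 0.53 on the log2 scale. Of 2 embryo loci, 0 passed (1 was higher under upper-quartile factors or library totals), and their sum was 160 to 171 CPM in ZH11 and 160 to 176 CPM in drw1. Most of this sum was 1 locus, with a mean of 159 CPM in ZH11 and 163 CPM in drw1. The other had 8.33 and 7.71 CPM. No marker was at 0 in either genotype. The part of these tissues in the fall of the storage protein genes was not tested.

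**Figure D5:**
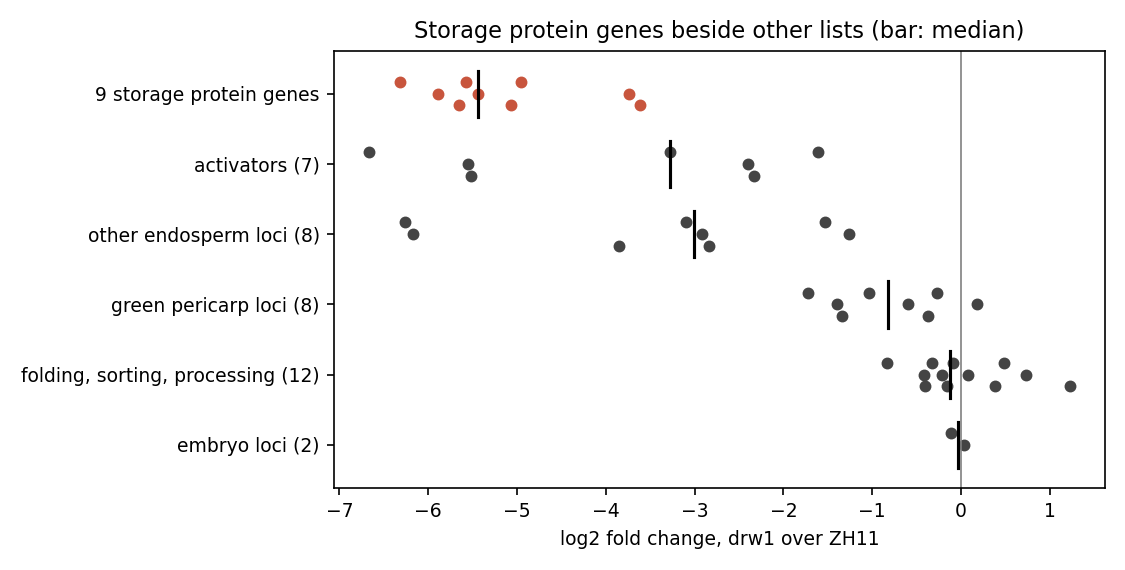
Log2 fold change, drw1 over ZH11, of the tested loci of each list, one point a locus, with a bar at the median of each list. The storage protein genes have a median of -5.45, the loci assigned to activators -3.27, the other endosperm loci -3.01 and the green pericarp loci -0.82. The folding, sorting and processing loci lie around 0.

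By pattern over the 6 libraries, 2 loci came nearest to the mean of the 9 members, among 240 other loci with at least 5 CPM in ZH11 and a fall of at least 8-fold. LOC_Os11g07600 went from 68.9 ± 2.16 to 7.78 ± 0.601 CPM, and LOC_Os04g46880 from 623 ± 11.7 to 74.2 ± 2.90 CPM (SD, n = 3). The root mean square distances of their standardized log2 levels from the members' mean were 0.0208 and 0.0251. The libraries form 2 groups, so any locus with an even fall lies near the members by this measure, and the files give neither locus a name.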

How the data were processed

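Per the submitters' processing notes, reads were handled with fastp, HISAT2, featureCounts and DESeq; no version is listed, and the build, the annotation, strandedness and the handling of multi-mapping reads are not given there. The deposited values are whole-number counts per gene model, not normalized by the authors, judging from the values, with the gene length in bases as another deposited column. Lengths of all 9 members are multiples of 3 and are called coding length. Library totals were 15582373 to 24147797 counts in ZH11 and 16440923 to 17270099 in drw1. Replicates differed by more than sampling noise.

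Genotypes were compared with edgeR 4.0.16 in R 4.3.3 (quasi-likelihood test, two-sided, genotype only, TMM, default filter), with Benjamini-Hochberg adjustment over 23395 genes and a threshold of 0.05; approximate standard errors come from its F statistic. The code was tested on simulated data with fewer changed genes and smaller fold changes than those of the members. That test therefore does not cover falls as large as theirs. Intervals are exact binomial at 95%, and floors are 3 counts; both cover counting error only. Alternatives used limma 3.58.1 and DESeq2 1.42.0.

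The members, lists, tests and the rule for named genes (all members, plus the 2 loci of nearest pattern) were chosen with earlier results of these data known. Member names come with the choice of genes. The RefSeq gene table (assembly ASM3414082v1) holds 0 of the identifiers; it lists 6 of the 9 names, 6 of them on the chromosome of the locus, and the 4 on chromosome 2 in the same order. Other loci were assigned to lists from memory, have no gene names here, and are counted, apart from 1 list locus and 1 neighbouring locus given by identifier, which were chosen after their values were seen.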

Additional observations from a re-analysis of the deposited data

How the results depend on the processing

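All 9 members kept their direction and their call in the 124 alternative values that could be computed, under other scaling, filters, tools, the replicate block and with 1 library left out. GluB1 and GluB4 were not tested under the stricter filter (5 CPM in 3 libraries), which left 7 of 7 called. Members lower by at least 32-fold numbered 5 to 8 without 1 library. With 1 library left out, the log2 fold change ran from -4.13 to -4.01 for summed GluA, from -5.50 to -5.12 for summed GluB and from -6.44 to -6.24 for Glb. Genes lower by at least 8-fold numbered 760 with no filter and 237 with the stricter one, against 425, and those lower by at least 32-fold 193 and 43, against 90; these filters test more and fewer genes. With GluA3 in place of summed GluA, the composition differences were 0.60 for GluB, 0.0080 for GluD1 and -0.10 for GluC1, each with overlapping genotypes, so the differences from summed GluA were not seen against GluA3. Sorting and processing loci lower numbered 3 with library totals, green pericarp loci higher numbered 0 with DESeq2 size factors and 0 to 1 without 1 library, and embryo loci higher numbered 1 with library totals and with upper-quartile factors; the cause was not tested. With the replicate number as a block, which changed no member's call, 9 members were lower and 7621 genes in all. Nothing in the labels makes a number mark a common source. Deviations from the genotype means correlated at -0.17, 0.03 and -0.14 between libraries of one number, so the numbers were not taken as pairs. Depth limits the drw1 values: apart from GluA2 with 237, a member had 3 to 58 reads over the genotype.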
